A study of Mus musculus with 14 samples.

Results

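The genes described here are 10 components of Notch signalling in mouse aortic intima: the receptors Notch1 and Notch4, the ligands Dll1, Dll4, Jag1 and Jag2, and the target genes Hey1, Hey2, Hes1 and Nrarp. They were picked by symbol from a table of 22430 genes, and all 10 had a row and passed the filter on low counts that left 14269 genes for testing. Every mouse in the study lacked Apoe (Apoe-/-), which makes mice prone to atherosclerosis. The ubiquitous progerin group was homozygous for the Lmna G609G mutation (LmnaG609G/G609G), so that all cells that use the gene make progerin, a shortened lamin A that causes Hutchinson-Gilford progeria syndrome, and its control carried wild-type Lmna (Lmna+/+). The VSMC progerin group was homozygous for the LCS allele of Lmna and carried SM22Cre (LmnaLCS/LCS SM22Cre), a recombinase under the smooth muscle SM22α promoter, so that progerin is made in vascular smooth muscle cells (VSMC). Its control had the same LCS alleles without Cre and made lamin C only. There were 3 pools for ubiquitous progerin, 4 for the wild-type control, 3 for VSMC progerin and 4 for the lamin C-only control. Each pool was RNA of 12 to 14 mice of 1 genotype, lysed by passing reagent through the lumen of the thoracic aorta, so that the mice behind a pool cannot be told apart. No source used here gives the age or sex of the mice.

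Notch receptors are single-pass membrane proteins activated by Delta-like (Dll) or Jagged (Jag) ligands on a neighbouring cell. Ligand binding exposes the receptor to cleavage by ADAM proteases and then by γ-secretase, and the freed intracellular domain joins the DNA-binding protein RBPJ and a Mastermind coactivator to switch on Hes and Hey repressors and the feedback inhibitor Nrarp. In arteries the pathway sets and keeps arterial identity in endothelial cells, and Jag1 on endothelium also signals to neighbouring smooth muscle.

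The libraries held between 27169800 and 35692400 estimated counts. The 10 endothelial markers summed to 20951 to 21988 CPM, the share of a library's counts scaled by edgeR's TMM factors, in the ubiquitous progerin pools and 23525 to 25358 CPM in the wild-type pools, and to 22464 to 23297 CPM in the VSMC progerin pools and 22611 to 24768 CPM in the lamin C-only pools. These markers did not move as one. With ubiquitous progerin 6 of the 10 were called lower and 2 higher (median log2 fold change -0.33), the lower ones being Tek (-1.30), Cdh5 (-0.62), Cldn5 (-0.59), Vwf (-0.51), Esam (-0.35) and Tie1 (-0.31). The higher ones were Egfl7 (0.24) and Erg (0.13, edgeR adjusted p = 0.0499). Pecam1, which made up the largest part of each sum, was not called (0.04). With VSMC progerin 5 were higher and 4 lower (median 0.07), with Pecam1 among the lower ones (-0.36). The 8 macrophage markers were higher in both progerin groups: they summed to 650.1 to 894 CPM in the ubiquitous progerin pools against 38.0 to 60.4 CPM in the wild-type pools, and to 449 to 523 CPM in the VSMC progerin pools against 39.5 to 83.6 CPM in the lamin C-only pools, with none of the 8 at 0 in any group and all 8 called higher in each model. In the VSMC model the 6 fibroblast markers (1210 to 1421 CPM against 369.8 to 617 CPM) and the 4 adipocyte markers (1059 to 1306 CPM against 156 to 702 CPM) were also higher than in the lamin C-only control, with 4 of 6 and 4 of 4 called. The 8 smooth muscle markers summed to 936 to 982 CPM in the ubiquitous progerin pools against 492 to 842 CPM in the wild-type pools, and to 318 to 383 CPM in the VSMC progerin pools against 399 to 561 CPM in the lamin C-only pools. The higher sum with ubiquitous progerin was that of Tagln, the SM22α gene, which had 737 to 808 CPM in the ubiquitous progerin pools against 208 to 360.2 CPM in the wild-type pools and was the only one of the 8 called higher (log2 fold change 1.59). Acta2 (-1.20), Myh11 (-1.32) and Smtn (-0.65) were called lower there, and 3 of the 8 were lower and none higher with VSMC progerin. Mitochondrial genes took 7.29% to 8.22% of counts in the ubiquitous progerin pools against 4.60% to 5.42% in the wild-type pools, and 11.5% to 12.1% in the VSMC progerin pools against 3.53% to 4.61% in the lamin C-only pools. Wild-type pool 1 stood apart from the other 13 pools on the third principal component. These values moved with the same contrasts as the Notch genes below, and their part in those results was not tested. In such bulk RNA, fewer cells of a type and less RNA per cell cannot be told apart.

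**Figure D1:**
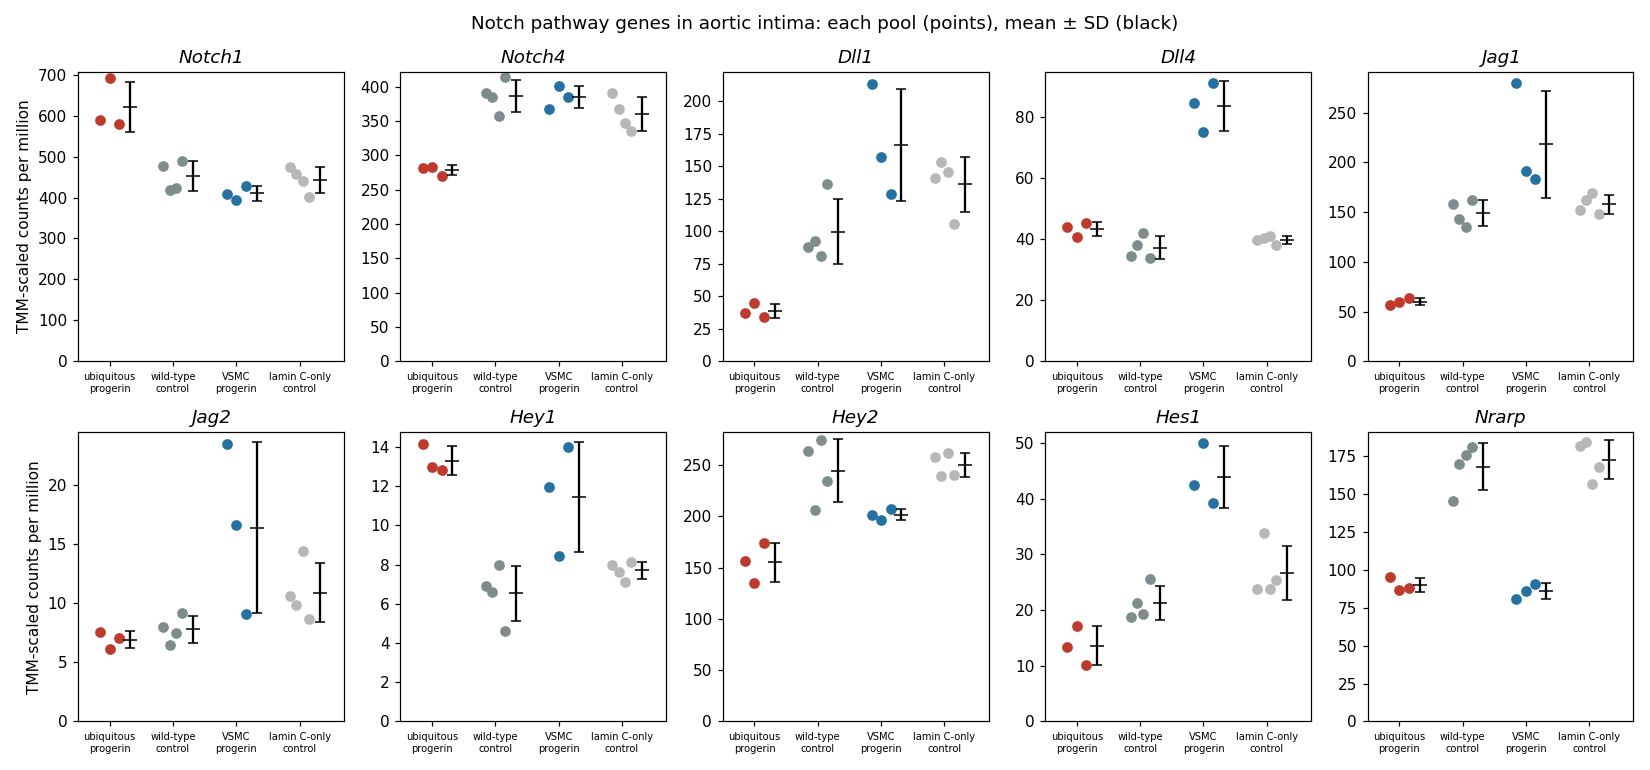
Level of each of the 10 genes in every pool, in CPM after TMM scaling, on axes that start at 0. Points are pools of ubiquitous progerin (red, 3), wild-type control (dark grey, 4), VSMC progerin (blue, 3) and lamin C-only control (light grey, 4), with the mean and SD in black beside them. Jag1, Dll1 and Hes1 have their lowest mean in ubiquitous progerin and their highest in VSMC progerin, while Nrarp is low in both progerin groups.

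Divided by the length of the transcript, so that genes can be set beside each other, Hey2 and Nrarp had the highest levels of the 10 in the controls. In the wild-type control, Hey2 had 95.9 ± 12.0 CPM per kilobase, Nrarp 65.1 ± 6.08, Notch4 58.7 ± 3.56 and Notch1 47.7 ± 3.79 (SD, n = 4 pools). Dll1 (27.8 ± 6.99 CPM per kilobase) and Jag1 (26.6 ± 2.27) were the leading ligands there, followed by the target Hes1 (14.5 ± 2.09) and by Dll4 (9.92 ± 0.993), while Hey1 (2.698 ± 0.579) and Jag2 (1.53 ± 0.222) had the lowest levels. The ranges of neighbours overlapped in this order only for Nrarp with Notch4 and for Dll1 with Jag1. With the same lengths the lamin C-only control had the same order of the 10 genes, from Hey2 with 98.0 ± 4.52 to Jag2 with 2.14 ± 0.490 CPM per kilobase (SD, n = 4 pools), and there Notch1 overlapped Dll1 and Dll1 overlapped Jag1.

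The order differed in the progerin groups. In the ubiquitous progerin pools Notch1 came first with 65.5 ± 6.52 CPM per kilobase and overlapped Hey2 with 60.8 ± 7.53, and Notch4 (42.2 ± 1.10) and Nrarp (34.8 ± 1.83) followed without overlap (SD, n = 3 pools). Dll4, Dll1, Jag1 and Hes1 were then within overlapping neighbours between 9.26 and 11.6 CPM per kilobase, so that the 3 most abundant ligands lay together. In the VSMC progerin pools Hey2 came first (79.1 ± 2.16 CPM per kilobase), and the next genes, Notch4 (58.4 ± 2.46), Dll1 (46.5 ± 12.1), Notch1 (43.2 ± 1.86), Jag1 (38.9 ± 9.57), Nrarp (33.3 ± 1.94) and Hes1 (29.9 ± 3.75), each overlapped their neighbour (SD, n = 3 pools). Dll4 stood alone below them with 22.3 ± 2.19 CPM per kilobase. The length used was that of the longest coding transcript in GENCODE M21. With all exons of a gene joined instead, a length chosen after the data were seen, the order changed in every group. Notch1 still came first in the ubiquitous progerin pools, but Nrarp and Notch4 then led Hey2, and Jag1 led Dll1. Nrarp led Hey2 in both controls, which no longer shared 1 order: Jag1 led Dll1 in the wild-type control and Dll1 led Notch1 in the lamin C-only control. In the VSMC progerin pools Notch4 led Hey2, Jag1 and Nrarp led Notch1, and Dll4 led Hes1.

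**Figure D2:**
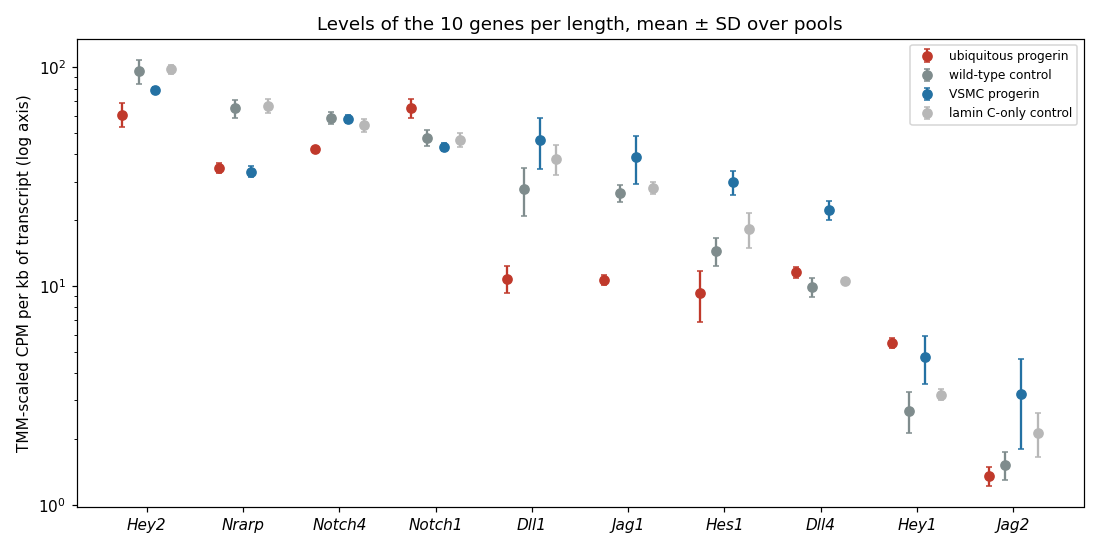
Level per kilobase of transcript of the 10 genes on a log axis, as mean and SD over pools, for ubiquitous progerin (red, n = 3), wild-type control (dark grey, n = 4), VSMC progerin (blue, n = 3) and lamin C-only control (light grey, n = 4). Genes run from the highest to the lowest level in the wild-type control, from Hey2 at 95.9 to Jag2 at 1.53 CPM per kilobase.

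Each progerin group was compared with its own control by edgeR's quasi-likelihood test in 1 fit of all 14 libraries, with Benjamini-Hochberg adjustment over the 14269 genes, and genes with an adjusted p under 0.05 are referred to as called. The p-values measure the spread between pools. With ubiquitous progerin 9 of the 10 genes were called, 3 higher and 6 lower, where 54.6% of all genes tested were called (26.3% higher and 28.3% lower). With VSMC progerin 6 of the 10 were called, 4 higher and 2 lower, where 42.0% of all genes were called (19.0% higher and 23.0% lower). The median log2 fold change of the 10 genes was -0.56 with ubiquitous progerin and 0.38 with VSMC progerin, beside medians over all genes of -0.0050 and -0.03. A log2 fold change below is the progerin group over its control, given with its standard error (SE). Without wild-type pool 1, 8 of the 10 genes were called with ubiquitous progerin, Dll4 being the one lost. Every fold change of the 10 genes in both progerin comparisons had the same sign under each other scaling, filter and test tried.

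**Figure D3:**
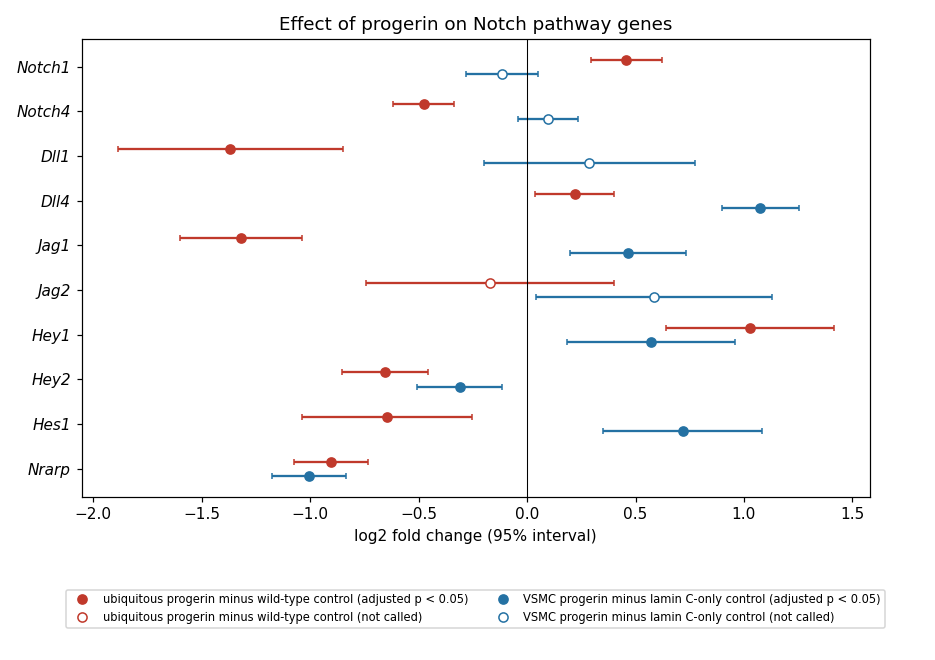
Log2 fold change of each gene with its 95% interval for ubiquitous progerin over the wild-type control (red) and VSMC progerin over the lamin C-only control (blue). Filled points have an edgeR adjusted p under 0.05 and open points do not. Jag1 and Hes1 are filled on opposite sides of 0, Nrarp lies at -0.90 and -1.004, and Dll4 lies at 0.22 with ubiquitous and 1.08 with VSMC progerin.

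The receptors Notch1 and Notch4 moved in opposite directions with ubiquitous progerin, and neither was called with VSMC progerin. Notch1 (ENSMUSG00000026923, chr2:26457903-26516663, minus strand, GRCm38) is the receptor through which most Notch signalling in arterial endothelium runs. It had 590.0, 692 and 581 CPM in the ubiquitous progerin pools against 477, 418, 424 and 489 CPM in the wild-type pools, so that all 3 progerin pools lay above all 4 wild-type pools. Notch1 rose by 0.46 ± 0.07 on the log2 scale (SE, edgeR adjusted p = 2.71e-05). With VSMC progerin it had 409, 393 and 428 CPM against 474, 458, 441 and 400.0 CPM in the lamin C-only pools, ranges that overlapped, and a log2 fold change of -0.11 ± 0.07 (edgeR adjusted p = 0.236, 95% interval -0.28 to 0.05).

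Notch4 (ENSMUSG00000015468, chr17:34564268-34588503, plus strand), a receptor largely restricted to endothelium, had 281, 283 and 270.0 CPM in the ubiquitous progerin pools against 390.0, 385, 357 and 414 CPM in the wild-type pools. The 3 progerin pools lay within a narrow band below every wild-type pool, and Notch4 fell by 0.48 ± 0.06 on the log2 scale (SE, edgeR adjusted p = 2.46e-06). In the VSMC model it had 368, 400.0 and 385 CPM against 391, 367, 346 and 335 CPM in the lamin C-only pools. These ranges overlapped, and the log2 fold change was 0.10 ± 0.06 (edgeR adjusted p = 0.233, 95% interval -0.04 to 0.23). As a ratio of counts within a library, which does not depend on the scaling between libraries, there were 2.23 ± 0.187 Notch1 counts per Notch4 count with ubiquitous progerin (SD, n = 3) and 1.17 ± 0.058 in the wild-type control (SD, n = 4). The same ratio was 1.07 ± 0.0752 with VSMC progerin (SD, n = 3) and 1.23 ± 0.0355 in the lamin C-only control (SD, n = 4), so the ubiquitous progerin pools, at 2.10 to 2.45, stood above the other 11 pools.

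The ligands Jag1 and Dll1 fell most of the 10 genes with ubiquitous progerin. Jag1 (ENSMUSG00000027276, chr2:137081456-137116644, minus strand), the Jagged ligand that endothelial cells present to smooth muscle, had 56.6, 59.6 and 63.4 CPM in the ubiquitous progerin pools against 158, 143, 135 and 162 CPM in the wild-type pools. The groups were far apart and Jag1 was at 0.401 times its wild-type level, a log2 fold change of -1.32 ± 0.13 (SE, edgeR adjusted p = 6.02e-07). In the VSMC model Jag1 went the other way: it had 280.0, 191 and 183 CPM in the VSMC progerin pools against 152, 162, 169 and 148 CPM in the lamin C-only pools. All 3 progerin pools lay above the 4 control pools, with pool 1 well above the others, and Jag1 rose by 0.47 ± 0.12 on the log2 scale (SE, edgeR adjusted p = 0.00603). Without VSMC progerin pool 1 the log2 fold change was 0.27 and was still called.

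Dll1 (ENSMUSG00000014773, chr17:15367354-15376872, minus strand), a Delta-like ligand with a role in arterial endothelium, had 37.1, 44.6 and 34.2 CPM in the ubiquitous progerin pools against 88.0, 92.7, 81.3 and 137 CPM in the wild-type pools. Every progerin pool lay below every wild-type pool, of which pool 4 was the highest, and Dll1 fell by 1.37 ± 0.23 on the log2 scale (SE, edgeR adjusted p = 0.000466). With VSMC progerin Dll1 had 214, 157 and 128 CPM against 141, 153, 145 and 105 CPM in the lamin C-only pools. These ranges overlapped, and the log2 fold change of 0.29 ± 0.22 was not called (edgeR adjusted p = 0.323, 95% interval -0.20 to 0.77).

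Dll4 (ENSMUSG00000027314, chr2:119325784-119335962, plus strand), the Delta-like ligand typical of arteries and of sprouting tip cells, showed the largest rise of the 10 genes in the VSMC model. It had 84.7, 75.0 and 91.3 CPM in the VSMC progerin pools against 39.6, 40.2, 41.0 and 38.0 CPM in the lamin C-only pools. The control pools were nearly equal and the progerin pools far above them, a 2.11-fold difference (log2 fold change 1.08 ± 0.08, SE, edgeR adjusted p = 1.71e-09). With ubiquitous progerin Dll4 had 44.1, 40.6 and 45.3 CPM against 34.6, 38.1, 42.1 and 34.0 CPM in the wild-type pools, and wild-type pool 3 lay above the lowest progerin pool. Its log2 fold change of 0.22 ± 0.08 was called (edgeR adjusted p = 0.0276) but not after leaving out any 1 of wild-type pool 1, wild-type pool 4, ubiquitous progerin pool 1 or ubiquitous progerin pool 3 (0.18 to 0.21, adjusted p 0.0693 to 0.102).

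Jag2 (ENSMUSG00000002799, chr12:112907819-112929776, minus strand), the other Jagged ligand, had the lowest level per kilobase of the 10 genes and varied most among pools. It had 7.54, 6.15 and 7.09 CPM in the ubiquitous progerin pools against 8.01, 6.47, 7.51 and 9.21 CPM in the wild-type pools, which overlapped (log2 fold change -0.17 ± 0.26, edgeR adjusted p = 0.603). In the VSMC progerin pools it had 23.5, 16.6 and 9.10 CPM against 10.6, 9.88, 14.5 and 8.70 CPM in the lamin C-only pools. VSMC progerin pool 3 lay within the control range, and the log2 fold change of 0.59 ± 0.24 was not called (edgeR adjusted p = 0.0657). Jag2 passed the threshold by DESeq2 (log2 fold change 0.62, adjusted p = 0.0287), without lamin C-only pool 3 (0.75, edgeR adjusted p = 0.0219) and without VSMC progerin pool 3 (0.87, edgeR adjusted p = 0.00102). Dll1, Jag1 and Jag2 were all highest in the same VSMC progerin pool, pool 1.

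Set against each other within a library, there were 0.725 ± 0.0491 Dll4 counts per Jag1 count with ubiquitous progerin (SD, n = 3) and 0.252 ± 0.0472 in the wild-type control (SD, n = 4). With VSMC progerin the ratio was 0.398 ± 0.0980 (SD, n = 3) and in the lamin C-only control 0.252 ± 0.00813 (SD, n = 4). Every pool of each progerin group had a higher ratio than all pools of its own control, with Jag1 low in one model and Dll4 high in the other. VSMC progerin pool 1 had a ratio of 0.303, close to the 0.260 of the highest lamin C-only pool.

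**Figure D4:**
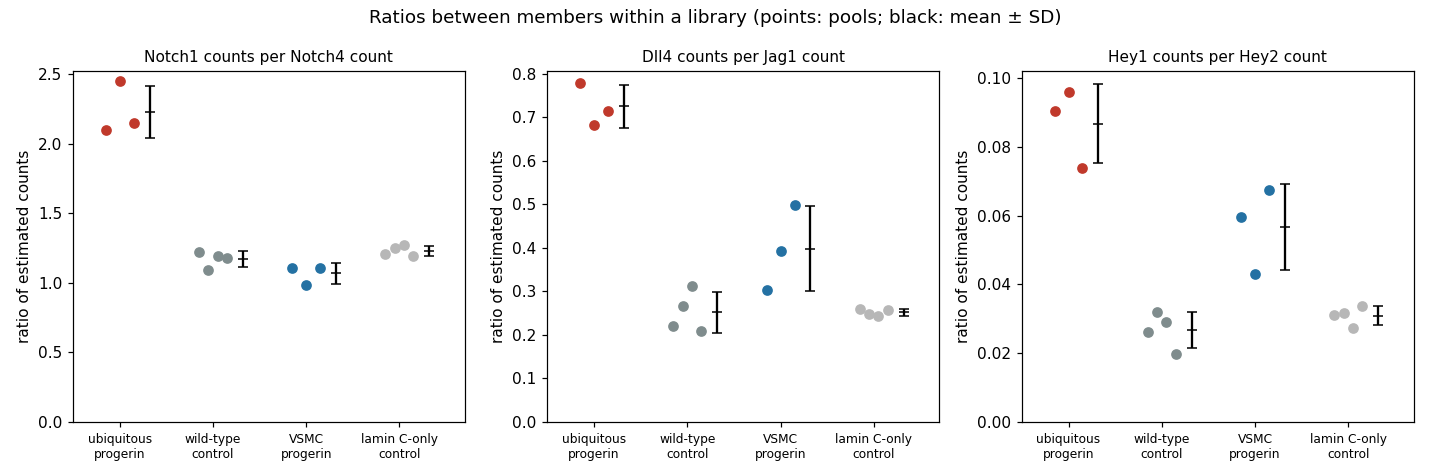
Counts of one gene per count of another within each library, on axes that start at 0: Notch1 per Notch4, Dll4 per Jag1 and Hey1 per Hey2. Points are pools of ubiquitous progerin (red), wild-type control (dark grey), VSMC progerin (blue) and lamin C-only control (light grey), with mean and SD in black. Ubiquitous progerin has the highest mean in each panel (2.23, 0.725 and 0.0867).

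Among the targets, Nrarp and Hey2 fell and Hey1 rose in both models, while Hes1 fell in one and rose in the other. The promoters of the pair that fell in both are shown because both genes are direct Notch targets and they differ in the letters of the RBPJ core motif. The sequences are from RefSeq on GRCm38.p6 and run 5′ to 3′ on the gene's strand, with capitals marking TGGGAA or its reverse complement TTCCCA. Hey2 (chr10:30842781-30843033, minus strand, 250 bases before the RefSeq start and 3 after) has TTCCCA from 207 bases before that start and TGGGAA from 3 bases before it. In GENCODE M21 the Hey2 gene begins further upstream, at 30842801, so that the TGGGAA lies within the gene there. Nrarp (chr2:25180508-25180757, plus strand, 250 bases before the start) has no match.
Hey2: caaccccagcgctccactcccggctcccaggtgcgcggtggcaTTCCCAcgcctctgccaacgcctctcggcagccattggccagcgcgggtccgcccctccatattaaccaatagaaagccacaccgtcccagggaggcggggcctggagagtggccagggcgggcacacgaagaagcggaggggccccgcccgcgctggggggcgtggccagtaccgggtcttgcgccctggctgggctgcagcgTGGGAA
Nrarp: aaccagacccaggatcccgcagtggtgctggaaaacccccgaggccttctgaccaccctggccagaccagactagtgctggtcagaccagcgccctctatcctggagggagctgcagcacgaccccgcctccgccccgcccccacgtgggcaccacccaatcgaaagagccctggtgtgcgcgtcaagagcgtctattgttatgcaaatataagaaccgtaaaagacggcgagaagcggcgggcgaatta
The table holds promoters for 8 of the 10 genes, with none for Hey1 and Hes1. In windows of 300 bases (250 before the start and 50 after) the motif occurred on either strand in 1 of the 9 promoters of these genes, that of Hey2, and in 25.6% of all 32851 promoters.

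Nrarp (ENSMUSG00000078202, chr2:25180758-25183339, plus strand), a small ankyrin repeat protein that binds the Notch intracellular domain and limits its activity, fell in each model. It had 95.3, 86.5 and 87.8 CPM in the ubiquitous progerin pools against 145, 170.0, 176 and 181 CPM in the wild-type pools, without overlap. The log2 fold change was -0.90 ± 0.08 (SE, edgeR adjusted p = 6.41e-09). In the VSMC progerin pools it had 80.9, 86.3 and 90.9 CPM against 182, 184, 156 and 168 CPM in the lamin C-only pools, again without overlap, at 0.499 times the control (log2 fold change -1.004 ± 0.08, SE, edgeR adjusted p = 2.85e-09). The difference between the models was 0.10 ± 0.11 on the log2 scale (edgeR adjusted p = 0.469), with a 95% interval of -0.14 to 0.34.

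Hey2 (ENSMUSG00000019789, chr10:30832359-30842801, minus strand), a repressor that marks and promotes arterial fate, had 156, 135 and 174 CPM in the ubiquitous progerin pools against 263, 207, 274 and 234 CPM in the wild-type pools. All progerin pools were below all wild-type pools, and Hey2 fell by 0.66 ± 0.09 on the log2 scale (SE, edgeR adjusted p = 4.35e-06). With VSMC progerin it had 201, 196 and 207 CPM against 258, 239, 262 and 241 CPM in the lamin C-only pools. The groups did not overlap, and Hey2 fell by 0.31 ± 0.09 (SE, edgeR adjusted p = 0.00802).

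Hey1 (ENSMUSG00000040289, chr3:8663359-8667256, minus strand), the related repressor, was much less abundant per kilobase and moved the opposite way. It had 14.2, 12.98 and 12.8 CPM in the ubiquitous progerin pools against 6.91, 6.60, 8.003 and 4.64 CPM in the wild-type pools. No pools overlapped and Hey1 was 2.04-fold higher (log2 fold change 1.03 ± 0.17, SE, edgeR adjusted p = 4.70e-05). In the VSMC progerin pools it had 12.0, 8.43 and 14.0 CPM against 7.99, 7.61, 7.13 and 8.12 CPM in the lamin C-only pools. The lowest progerin pool was just above the highest control pool, and the log2 fold change of 0.57 ± 0.17 (SE, edgeR adjusted p = 0.0117) was 0.40 without VSMC progerin pool 3, where it was not called (edgeR adjusted p = 0.0972). There were 0.0867 ± 0.0115 Hey1 counts per Hey2 count with ubiquitous progerin (SD, n = 3) and 0.0268 ± 0.00521 in the wild-type control (SD, n = 4), and 0.0567 ± 0.0125 with VSMC progerin (SD, n = 3) and 0.0309 ± 0.00272 in the lamin C-only control (SD, n = 4).

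Hes1 (ENSMUSG00000022528, chr16:30064384-30067796, plus strand), a repressor that answers Notch in many tissues and other signals too, had 13.4, 17.2 and 10.1 CPM in the ubiquitous progerin pools against 18.8, 21.3, 19.3 and 25.5 CPM in the wild-type pools. The groups did not overlap and Hes1 fell by 0.65 ± 0.18 on the log2 scale (SE, edgeR adjusted p = 0.00570). In the VSMC progerin pools it had 42.5, 49.9 and 39.2 CPM against 23.8, 33.9, 23.7 and 25.4 CPM in the lamin C-only pools, with lamin C-only pool 2 the nearest to the progerin range. Hes1 rose by 0.72 ± 0.16 there (SE, edgeR adjusted p = 0.00247).

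The effects of the models share no libraries, so their difference was tested directly in the same fit, as the ubiquitous effect minus the VSMC effect. It was called for 7 of the 10 genes, 1 higher and 6 lower, where 44.2% of all genes tested were called (22.4% higher and 21.8% lower). The largest differences were in Jag1 (-1.78 ± 0.17, edgeR adjusted p = 1.19e-06), Dll1 (-1.65 ± 0.32, edgeR adjusted p = 0.00143) and Hes1 (-1.36 ± 0.24, edgeR adjusted p = 0.000270), all lower in the ubiquitous than in the VSMC effect. Dll4 followed with -0.86 ± 0.12 (edgeR adjusted p = 4.78e-06). The receptors differed by equal amounts in opposite directions: Notch1 by 0.57 ± 0.10 (edgeR adjusted p = 0.000170) and Notch4 by -0.57 ± 0.09 (edgeR adjusted p = 2.58e-05). Hey2 differed by -0.35 ± 0.12 (edgeR adjusted p = 0.0292), a call lost when any 1 of 6 pools was left out (-0.25 to -0.33, adjusted p 0.0512 to 0.105): ubiquitous progerin pool 2, wild-type pools 1 and 3, VSMC progerin pool 3, and lamin C-only pools 2 and 4. Hey1 (0.45 ± 0.25, 95% interval -0.10 to 1.01, edgeR adjusted p = 0.146) and Jag2 (-0.76 ± 0.35, 95% interval -1.55 to 0.03, edgeR adjusted p = 0.0969) were not called. The Jag2 difference was called without lamin C-only pool 3 (-0.92, adjusted p = 0.0367) and without VSMC progerin pool 3 (-1.05, adjusted p = 0.00305).

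Between the control groups, which differ in making lamin C only or both wild-type lamins, no gene of the 10 was called by edgeR, where 0.175% of all genes tested were called. None had an unadjusted p under 0.05, none was called by DESeq2, limma-voom or limma on the deposited log2 values, and the pools of all 10 genes overlapped. The largest log2 fold changes of the lamin C-only over the wild-type control were Jag2 at 0.49 ± 0.23 (95% interval -0.03 to 1.00), Dll1 at 0.45 ± 0.20 (interval from about 0 to 0.91) and Hes1 at 0.33 ± 0.16 (interval -0.02 to 0.68), with edgeR adjusted p-values of 0.682, 0.677 and 0.678. For Notch1 (-0.18 to 0.13), Notch4 (-0.23 to 0.03), Hey2 (-0.15 to 0.21) and Nrarp (-0.12 to 0.19) the 95% intervals were narrow around 0.

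The 10 genes differed in how evenly they were expressed within groups. The pooled SD of log2 CPM within groups was 0.0788 for Notch4, 0.109 for Notch1, 0.110 for Dll4 and Nrarp and 0.135 for Hey2, below the median of 0.153 over all genes tested. It was 0.176 for Jag1, 0.252 for Hey1, 0.255 for Hes1, 0.293 for Dll1 and 0.376 for Jag2. The ligands Dll1 and Jag2 therefore gave the widest intervals of the 10 in each comparison.

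Reads of some of the 10 genes could be shared with an annotated neighbour. The library kit keeps strand, but no source used here states whether counting used it, and without it reads from Notch1, Notch4, Dll1, Dll4 and Nrarp could not be told apart from those of transcripts annotated on the opposite strand (0610009E02Rik and Gm13568, Gm20462, A930024N18Rik, Gm14207 and Gm38287). Jag1, Hey1, Hey2 and Hes1 overlap no other annotated gene.

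The pathway around these genes was followed with 48 further genes in 6 lists, of which 41 passed the filter. With ubiquitous progerin 27 of the 41 were called (12 higher, 15 lower, median log2 fold change -0.14), where 54.6% of all genes tested were called, and with VSMC progerin 20 (5 higher, 15 lower, median -0.15), where 42.0% were. The difference between the models was called for 26 of them (16 higher, 10 lower), where 44.2% of all genes were. In each list below, a gene count stands beside the same background, which for ubiquitous progerin is 26.3% higher and 28.3% lower and for VSMC progerin 19.0% higher and 23.0% lower. Dll3, Dlk1, Dlk2, Dner, Hes5, Hes2 and Hes3 did not pass the filter, so Notch2 and Notch3 were the receptors and ligands left outside the 10 genes. Notch2, a receptor found in many cell types, was lower in both models (-0.31 ± 0.08, edgeR adjusted p = 0.00465, and -0.71 ± 0.09, edgeR adjusted p = 1.61e-06). Notch3, the smooth muscle receptor, had 15 to 20 counts per ubiquitous progerin library against 24 to 73 per wild-type library and was called lower (-1.27 ± 0.46, edgeR adjusted p = 0.0237), but not by limma-voom (adjusted p = 0.0656) nor without any 1 of wild-type pools 2 and 4 and ubiquitous progerin pools 1 and 3 (-0.94 to -1.21).

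Of 5 enzymes that add sugars to Notch receptors, 3 were lower, 1 was higher and 1 was not called with ubiquitous progerin: Poglut1 (-0.81 ± 0.08, edgeR adjusted p = 3.97e-08) and Pofut1 (-0.49 ± 0.07, edgeR adjusted p = 5.03e-06), which add the first glucose and fucose, and Rfng (-0.76 ± 0.08, edgeR adjusted p = 9.06e-08), which extends the fucose, all fell. Lfng, the fringe enzyme that tunes receptors towards Delta-like ligands, rose by 0.48 ± 0.09 with ubiquitous progerin (edgeR adjusted p = 0.000309) and fell by 0.75 ± 0.10 with VSMC progerin (edgeR adjusted p = 6.45e-06). Lfng was the only one of the 5 called with VSMC progerin.

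Among 9 genes of receptor cleavage, 2 were higher and 3 lower in each model, so that the share called was near that of all genes tested (54.6% with ubiquitous and 42.0% with VSMC progerin). Adam10, the protease that makes the ligand-dependent cut, averaged 192 ± 6.24 CPM with ubiquitous progerin (SD, n = 3) and 364 ± 23.1 CPM in the wild-type control (SD, n = 4), and fell by 0.92 ± 0.07 on the log2 scale (SE, edgeR adjusted p = 6.19e-10). With VSMC progerin it averaged 419.6 ± 30.4 CPM (SD, n = 3) and 384 ± 22.8 CPM in the lamin C-only control (SD, n = 4), with a log2 fold change of 0.13 ± 0.06 that was not called by edgeR (adjusted p = 0.120) and was called by DESeq2 (0.16, adjusted p = 0.0335). Its relative Adam17 fell by 0.85 ± 0.10 with ubiquitous progerin (edgeR adjusted p = 6.12e-07) and rose by 0.37 ± 0.09 with VSMC progerin (edgeR adjusted p = 0.00356). Of the γ-secretase subunits, Ncstn (0.28 ± 0.05, edgeR adjusted p = 6.60e-05) and Psen2 (0.20 ± 0.07, edgeR adjusted p = 0.0169) rose with ubiquitous progerin. Aph1b fell there (-0.24 ± 0.07, edgeR adjusted p = 0.00976), a call lost without ubiquitous progerin pool 3 (edgeR adjusted p = 0.0636). With VSMC progerin Psen2 (-0.48 ± 0.07, edgeR adjusted p = 1.25e-05), Aph1a (-0.23 ± 0.06, edgeR adjusted p = 0.00312) and Aph1b (-0.79 ± 0.08, edgeR adjusted p = 7.16e-08) fell. Psenen rose with VSMC progerin (0.24 ± 0.09, edgeR adjusted p = 0.0271). Aph1b has a close copy, Aph1c, so its counts are uncertain.

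In the list of ligand ubiquitination and receptor turnover, 13 genes, 4 were higher and 3 lower with ubiquitous progerin and 2 higher and 3 lower with VSMC progerin. Dtx4, a Deltex E3 ligase, rose in both models from few counts (1.27 ± 0.22, edgeR adjusted p = 6.35e-05, and 1.96 ± 0.22, edgeR adjusted p = 4.18e-07). Mib2, a ligase for Notch ligands, fell in both (-0.61 ± 0.09, edgeR adjusted p = 1.35e-05, and -0.42 ± 0.09, edgeR adjusted p = 0.000915). Its relative Mib1 rose with ubiquitous progerin (0.24 ± 0.05, edgeR adjusted p = 0.00107). With VSMC progerin Mib1 was not called (-0.09 ± 0.06, edgeR adjusted p = 0.196). Dtx3l fell with ubiquitous progerin (-0.74 ± 0.08, edgeR adjusted p = 1.22e-07), and Neurl1b, another ligase for Notch ligands, fell with VSMC progerin (-0.95 ± 0.16, edgeR adjusted p = 5.74e-05).

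In the nuclear complex RBPJ, Mastermind and their cofactors meet the Notch intracellular domain. Of 9 genes, 5 were higher and 2 lower with ubiquitous progerin (26.3% and 28.3% of all genes tested), and 1 was higher and 7 lower with VSMC progerin (19.0% and 23.0% of all genes). The difference between the models was called for 8 of the 9, 7 of them higher in the ubiquitous effect, where 44.2% of all genes were called and 22.4% were higher. Rbpj itself rose with ubiquitous progerin (0.27 ± 0.07, edgeR adjusted p = 0.00197) and fell with VSMC progerin (-0.27 ± 0.07, edgeR adjusted p = 0.00291). Snw1, which binds RBPJ and also acts in splicing, rose by 0.46 ± 0.06 with ubiquitous progerin (edgeR adjusted p = 3.01e-06) and fell by 0.33 ± 0.06 with VSMC progerin (edgeR adjusted p = 0.000241). The coactivator Maml1 rose with ubiquitous progerin (0.49 ± 0.08, edgeR adjusted p = 4.04e-05), and its relative Maml2 fell in both models (-0.45 ± 0.08, edgeR adjusted p = 4.07e-05, and -0.42 ± 0.08, edgeR adjusted p = 0.000153). The acetyltransferase Ep300 (-0.41 ± 0.07, edgeR adjusted p = 0.000173) and the corepressor Spen (-0.50 ± 0.09, edgeR adjusted p = 0.000182) fell with VSMC progerin. Of the other Hes and Hey genes, Heyl fell with ubiquitous progerin (-1.14 ± 0.28, edgeR adjusted p = 0.00158), as did Hes6 (-0.40 ± 0.14, edgeR adjusted p = 0.0211). The Hes6 call was lost without wild-type pool 4 (-0.28, adjusted p = 0.0813) and without ubiquitous progerin pool 2 (-0.32, adjusted p = 0.105).

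**Figure D5:**
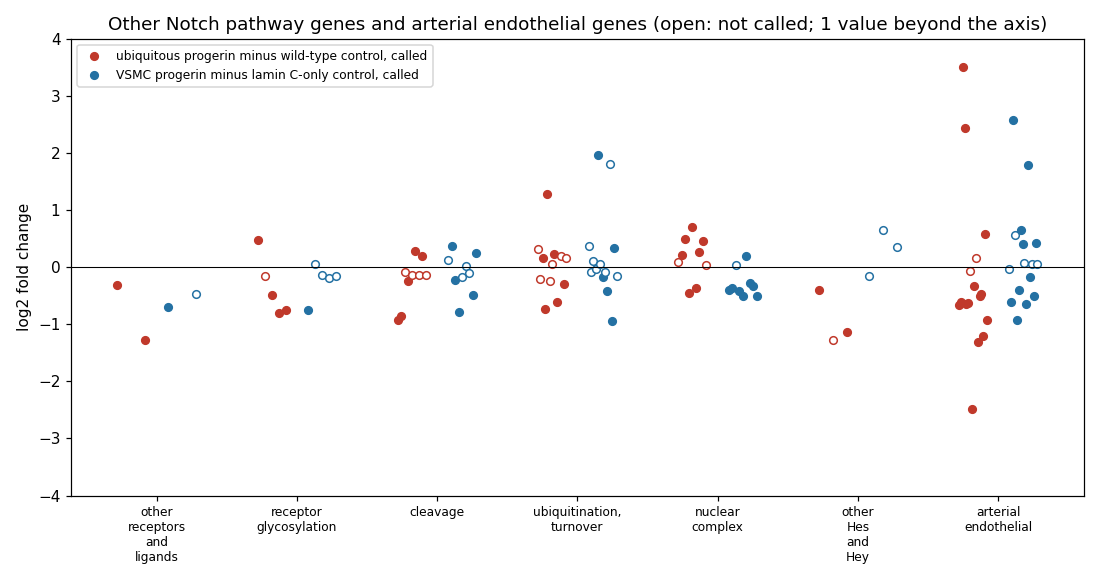
Log2 fold change of each tested gene in the 6 further pathway lists and the arterial endothelial list, for ubiquitous progerin over the wild-type control (red) and VSMC progerin over the lamin C-only control (blue). Filled points have an edgeR adjusted p under 0.05, open points do not, and 1 value lies beyond the axis at 4, that of Neurl1a with ubiquitous progerin, a gene with no counts in the wild-type pools. In the nuclear complex list most red points lie above 0 and most blue points below it.

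Arterial endothelial genes were described with a list of 16 other genes, since Notch signalling sets arterial fate. With ubiquitous progerin 3 were higher, 11 lower and 2 not called, where 26.3% of all genes tested were higher and 28.3% lower. Their median log2 fold change was -0.56, beside -0.56 for the 10 Notch genes, -0.33 for the 10 general endothelial markers, of which 6 were also lower, and -0.0050 over all genes. With VSMC progerin 5 of the 16 were higher, 6 lower and 5 not called, with a median of 0.05, beside 0.07 for the general endothelial markers. The difference between the models was called for 13 of the 16 (3 higher, 10 lower, median -0.37), for all 10 general endothelial markers (3 higher, 7 lower, median -0.66), and for 7 of the 10 Notch genes (median -0.66), where 44.2% of all genes were called. Gja5, the gap junction protein connexin 40 of arterial endothelium, averaged 151 ± 9.40 CPM with ubiquitous progerin (SD, n = 3) and 842 ± 137 CPM in the wild-type control (SD, n = 4), and fell by 2.48 ± 0.10 on the log2 scale (SE, edgeR adjusted p = 5.45e-12). With VSMC progerin Gja5 averaged 1291 ± 52.9 CPM (SD, n = 3) and 975.4 ± 54.6 CPM in the lamin C-only control (SD, n = 4), and rose by 0.40 ± 0.09 (SE, edgeR adjusted p = 0.00184). Gja5 thus moved in the same directions as Jag1 and Hes1.

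Efnb2, Sox7, Sox17, Bmx and Epas1 followed Hey2 and Nrarp in falling in both models, while Unc5b and Cxcr4 rose in both. Unc5b rose by 0.58 ± 0.06 with ubiquitous progerin (edgeR adjusted p = 1.25e-07) and by 0.42 ± 0.06 with VSMC progerin (edgeR adjusted p = 1.78e-05). Cxcr4 rose from few counts, by 3.50 ± 0.31 (edgeR adjusted p = 4.93e-08) and by 2.58 ± 0.30 (edgeR adjusted p = 2.43e-06). The 8 macrophage markers had median log2 fold changes of 3.92 and 3.23 in the same comparisons. Which cells gave the Cxcr4 counts was not tested. Efnb2, the ephrin that marks arteries, fell by 0.65 ± 0.06 with ubiquitous progerin (edgeR adjusted p = 4.93e-08) and by 0.93 ± 0.06 with VSMC progerin (edgeR adjusted p = 7.61e-10). Sox7, a transcription factor of arterial specification, fell by 1.21 ± 0.08 (edgeR adjusted p = 9.53e-11) and by 0.51 ± 0.07 (edgeR adjusted p = 1.28e-05). The kinase Bmx fell by 0.60 ± 0.06 in each model (edgeR adjusted p = 9.47e-08 and 1.95e-07). Epas1, a hypoxia-responsive factor abundant in endothelium, fell by 0.62 ± 0.06 (edgeR adjusted p = 4.58e-08) and by 0.41 ± 0.06 (edgeR adjusted p = 1.87e-05). Gja4, connexin 37, rose with VSMC progerin (0.66 ± 0.07, edgeR adjusted p = 3.79e-07) and had a log2 fold change of -0.07 ± 0.07 with ubiquitous progerin (edgeR adjusted p = 0.458). Between the controls none of the 41 pathway genes and none of the 16 arterial genes was called by edgeR or DESeq2, with 5 and 4 at an unadjusted p under 0.05.

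The genes whose levels over the 14 libraries were most like those of Notch1, Dll4 and Hey1 were found by the root mean square difference of log2 CPM after centring each gene. For Notch1 they were Crtc3 (0.0634), Fbxo11 (0.0769) and Akt1 (0.0778), where the median over all genes was 0.400. For Dll4 they were Armcx4 (0.0779), Jak3 (0.106) and Marcks (0.130), with a median of 0.578. For Hey1 they were Slc27a1 (0.189), Gngt2 (0.193) and Alcam (0.221), with a median of 0.585. The likeness includes the difference between groups, which all of these genes share: Armcx4 had log2 fold changes of 0.19 with ubiquitous progerin and 1.16 with VSMC progerin, near those of Dll4.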

How the data were processed

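RNA was measured in 14 pools of aortic intima by poly(A) RNA sequencing with a directional kit, per the labels' protocols. The authors deposited estimated counts per gene, and per the submitters' processing notes reads were handled with Trim Galore 0.6.10, cutadapt 4.1, STAR 2.7.10b and RSEM 1.2.28 on GRCm38. A second deposited table holds log2 expression values, and limma is named in the same notes. No source used here states the annotation release, whether counting used strand, or the filter behind that table.

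Estimated counts were rounded to whole numbers. The test was edgeR 4.0.16 (R 4.3.3) with filterByExpr by group (minimum count 10, minimum total 15), TMM scaling, a mean per group, robust quasi-likelihood fit and Benjamini-Hochberg adjustment over 14269 genes. Depth was 27169800 to 35692400 per library, and the common dispersion was 0.0187. CPM are scaled by TMM. The scripts were tested on simulated data. Alternatives were DESeq2 size factors, no filter, only the groups compared, a replicate block, limma-voom and limma 3.58.1 on the log2 values, DESeq2 1.42.0, and leaving out each pool. No 2 libraries of the same group agreed within sampling noise.

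The 10 genes and the lists were chosen with earlier results of these data known. From each further list, up to 3 called genes with the smallest p per model were named. Neurl1a, Psenen, Mib1, Rbpj, Unc5b, Cxcr4 and Sox17 were named after their values were seen.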

Additional observations from a re-analysis of the deposited data

Results flagged for a closer look

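Among the genes named in the text, effects that differ between the models by a test of the difference itself (the ubiquitous effect minus the VSMC effect, log2, edgeR) are Notch1 (0.57), Notch4 (-0.57), Dll1 (-1.65), Dll4 (-0.86), Jag1 (-1.78), Hey2 (-0.35) and Hes1 (-1.36) among the 10 genes. Among receptors, glycosylation and cleavage genes the named ones are Notch2 (0.40), Poglut1 (-0.62), Rfng (-0.60), Pofut1 (-0.35), Lfng (1.22), Adam10 (-1.05), Adam17 (-1.22), Ncstn (0.26), Aph1b (0.54) and Psen2 (0.68). Psenen, a γ-secretase subunit outside that choice, was also called (-0.39). In turnover, the nuclear complex and the other targets those named by smallest p are Dtx3l (-0.71), Neurl1b (1.14), Snw1 (0.79), Maml1 (0.45), Ep300 (0.50), Spen (0.53) and Heyl (-1.49). Among arterial genes 13 of 16 differ, of which the named ones are Gja5 (-2.89), Sox7 (-0.70), Efnb2 (0.28), Gja4 (-0.72) and Epas1 (-0.21, adjusted p = 0.0471), the last of which lost its call in 13 alternatives. The other 8, added after their values were seen, are Sema3g (-3.11), Depp1 (1.89), Vegfc (-0.97), Nrp1 (0.81), Acvrl1 (-0.62), Sox18 (-0.52), Mecom (-0.41) and Sox17 (-0.33).

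In 6 of 78 groups of 4 control pools, 1 pool lay apart relative to the spread of the other 3, where chance gives about 1 in 20. None was one of the 10 genes. In the lamin C-only control they were Notch2 in pool 3 (90.1 CPM), Adam17 in pool 4 (81.9 CPM), Maml2 in pool 2 (66.8 CPM against 65.9 to 66.0 CPM, set apart only because the other pools were nearly equal), Epas1 in pool 4 (2960.0 CPM) and Efnb2 in pool 1 (509 CPM), and in the wild-type control Adam10 in pool 4 (399 CPM).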

How the results depend on the processing

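Over all alternatives the count of the 10 genes called was 8 to 9 with ubiquitous progerin, 6 to 7 with VSMC progerin, 0 between the controls and 6 to 8 for the difference. Of the called effects of the 10 genes, 339 values under an alternative kept their direction and their call and 11 lost the call, as given beside Dll4, Hey1 and Hey2. Of the called effects of the other genes named by smallest p, 1017 values kept both and 25 lost the call. Of those lost, 13 were for the difference of Epas1 and 2 for that of Efnb2. The rest were for Notch3, Hes6 and Aph1b with ubiquitous progerin. Between the controls, leaving out 1 pool changed the sign of effects that were not called: the log2 fold change ran from -0.0631 to 0.0182 for Notch1, from -0.0407 to 0.0918 for Hey2 and from -0.0236 to 0.0833 for Nrarp. Over all genes the controls differed in 25 genes, and in 8 to 45 with 1 pool left out and 16 to 103 under the other alternatives, the most by DESeq2. Pool numbers did not pair the samples (correlations of deviations from group means -0.046 to 0.023). With the replicate block the 10 genes had 9 calls with ubiquitous progerin, 6 with VSMC progerin, 0 between the controls and 7 for the difference, and Notch3 (-1.23, adjusted p = 0.0530) and Hes6 (-0.34, adjusted p = 0.0519) lost their calls with ubiquitous progerin. With 3 or 4 pools a group, the intervals of Jag2 and Dll1 stay wide, so differences in them within those intervals were not detectable here.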
